A study of Prunus domestica x Prunus domestica subsp. insititia with 6 samples.

Results

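The genes described here are those whose transcripts were more abundant in every flooded leaf library than in any control library of a plum. They are 42 of 16917 genes with enough reads to be tested (0.248%), out of 26873 listed. A gene was a member when its lowest flooded value exceeded its highest control value by at least 0.585 on the log2 scale, which is 1.5-fold, and its mean over the flooded libraries was at least 5 counts-per-million (CPM). The same 6 libraries that are described below chose the members. The values of the members in the comparison of flooding with control are therefore a description. Standard errors and counts of called members from that comparison are given below as description too and support nothing.

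Flooded plants (3 samples) stood for 48 hours in water about 3 cm above the soil, and control plants (3 samples) were watered daily to field capacity. All were 10-month-old greenhouse plants in pots, grown from cuttings of Julior, a hybrid cultivar whose parents are Prunus insititia and Prunus domestica. The labels call the cultivar tolerant of flooding, and no sensitive cultivar is among the samples. RNA came from leaves, while the water stood around roots and soil. The labels do not say whether each sample was a separate plant, and the series' design text speaks of duplicates where the labels give 3 samples a group, so the spread between samples can be technical.

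Water that fills the pores of the soil slows the diffusion of oxygen to roots, and roots deprived of oxygen rely on glycolysis and fermentation. Leaves of such plants remain in air and receive signals from the roots, among them the ethylene precursor 1-aminocyclopropane-1-carboxylic acid. Abscisic acid and the closing of stomata, slower photosynthesis and the accumulation of carbohydrates are textbook features of leaves on flooded plants. None of the genes below is assigned to these processes, because the files do not pair the gene IDs with names and no annotation was used here. For the same reason the leaf label was not checked against marker genes, and no sequence is shown. Only 2 members are named by ID, the one with the largest gap between the groups and the one with the highest mean in flooded leaves. Others are referred to by their rank, from 1 for the largest gap to 42 for the smallest.

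Reads counted in genes numbered 11070986 to 12578205 in flooded and 13342964 to 15864206 in control libraries. Libraries did not sort cleanly by group when log2 CPM was correlated over all tested genes (genes are no independent replicates). Flooding replicate 3 had a correlation of 0.957 to 0.960 with the controls, against 0.957 and 0.945 with flooding replicates 1 and 2. Control replicate 2 had one of 0.960 with flooding replicate 3, against 0.935 and 0.957 with control replicates 1 and 3. Flooding replicate 2 had one of 0.951 with control replicate 2, against 0.959 and 0.945 with flooding replicates 1 and 3. Other pairs went with the groups. The highest correlation, 0.978, was between control replicates 1 and 3. Flooding replicate 1 had 0.959 and 0.957 with flooding replicates 2 and 3, against 0.943 to 0.949 with the controls. Reads outside gene models made up 5.63% of the listed reads of flooding replicate 2, against 0.940% to 1.37% of the other libraries.

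**Figure D1:**
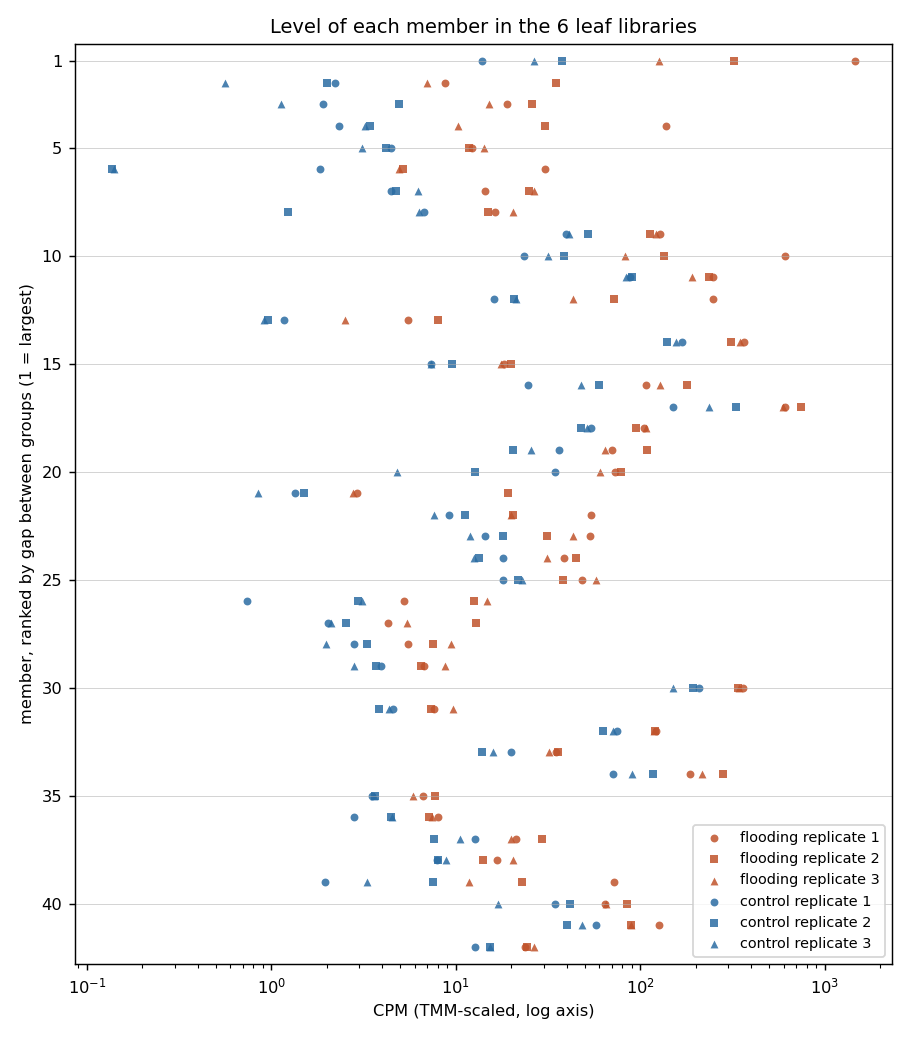
Level of each of the 42 members in each library, in TMM-scaled CPM on a log axis, with the members ranked from 1 (largest gap between the groups) at the top to 42. Each point is 1 library, orange for flooding and blue for control; flooded values of rank 1 spread from 127 to 1464 CPM, while those of rank 32 lie between 119 and 121 CPM.

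The largest gap between the groups belonged to Prupe.3G310500_v2.0.a1. It had 1464, 322 and 127 CPM in flooding replicates 1 to 3, against 13.9, 37.6 and 26.4 CPM in control replicates 1 to 3. The flooded libraries differed among themselves by 11.6-fold, with replicate 1 far above the others, yet the lowest of them was 3.35 times the highest control. Means were 637 ± 722 CPM in flooded and 26.0 ± 11.9 CPM in control leaves (SD, n = 3 each), and the fitted log2 fold change, flooding over control, was 4.62 (SE 0.97). Without flooding replicate 1 it was 3.10. At least 226 reads lay behind each of the 6 values. In these bulk samples, more RNA per cell and more cells of a type that carries the transcript cannot be told apart.

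The member with the highest mean in flooded leaves was Prupe.1G453500_v2.0.a1, rank 17. It had 611, 740 and 594 CPM in flooding replicates 1 to 3, against 150, 330 and 235 CPM in control replicates 1 to 3. Here the flooded libraries differed by less than 1.5-fold and the controls spread over 2.20-fold, with control replicate 2 the nearest to the flooded ones. The means were 648 ± 79.8 CPM in flooded and 239 ± 90.1 CPM in control leaves (SD, n = 3 each). The fitted log2 fold change was 1.44 (SE 0.30), on at least 2448 reads in each library.

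Members ran from weakly to strongly expressed genes, on the scale of CPM, which is not corrected for gene length. Their means were 5.36 to 648 CPM in flooded leaves, with a median of 34.9, and 0.706 to 239 CPM in control leaves, with a median of 12.4. In flooded leaves 34 of the 42 averaged at least 10 CPM and 13 at least 100 CPM. In control leaves 16 averaged under 5 CPM, so 26 were above that level in both groups. Every member had at least 30 reads in each flooded library, and 40 of the 42 had at least 10 reads in all 6 libraries.

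**Figure D2:**
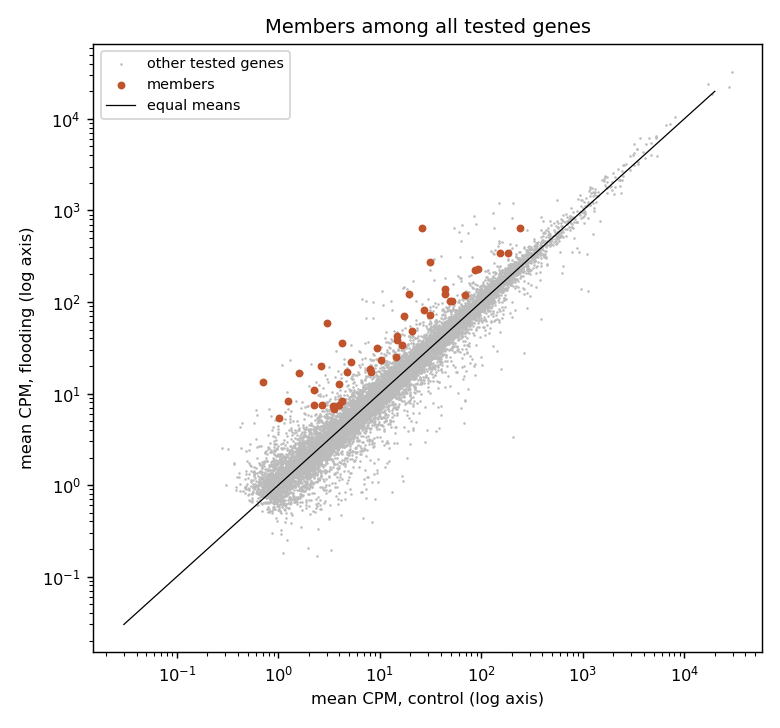
Mean CPM in flooded leaves (y axis) against mean CPM in control leaves (x axis), both on log axes, for the 42 members (orange) and the other tested genes (grey); each point is 1 gene and the line marks equal means. Members lie above the line from a control mean of 0.706 CPM up to one of 239 CPM, and grey points beside them are genes in which some libraries of the groups overlapped, or whose gap or level was below the limits.

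Fitted folds of the members, flooding over control, ran from 1.71 to 24.5 with a median of 2.75. On the log2 scale the median was 1.46, beside -0.0030 over all tested genes. The fold was at least 2 in 36 members and at least 4 in 13, and it was under 2 in the other 6. The gap between the lowest flooded and the highest control library was smaller than the fitted fold, 1.53-fold to 3.35-fold with a median of 1.75-fold, and it was at least 2-fold in 13 members.

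Close to the limit, the last member inside had 23.6, 24.5 and 26.4 CPM in flooding replicates 1 to 3, against 12.8, 15.4 and 15.3 CPM in control replicates 1 to 3, a gap of 1.53-fold. The first gene outside, with a gap of 1.498-fold, had 16.2, 5.24 and 3.27 CPM in flooding replicates 1 to 3, against 0.921, 2.13 and 1.48 CPM in control replicates 1 to 3. The third gene outside had 5.34, 5.24 and 5.11 CPM in flooding replicates 1 to 3, against 2.33, 3.37 and 3.37 CPM in control replicates 1 to 3. Even and uneven flooded libraries thus occurred among the genes outside the limit too. A further 19 genes passed the gap but averaged under 5 CPM in flooded leaves.

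The members fell along a range from even to uneven flooded libraries, described here by the ratio of the highest to the lowest flooded CPM. The limits of 1.5 and 3 on this ratio were set after the values were seen. The classes were cut on the flooded values themselves, so their differences in flooded spread and standard error follow from the cut. Fold is tied to the ratio too, since the lowest flooded library of every member lies above all controls. In 22 members the ratio was under 1.5, in 11 it lay between 1.5 and 3, and in 9 it was 3 or more. The even members make up 52.4% of all members. Among the 12734 tested genes that averaged at least 5 CPM in flooded leaves, 67.0% were as even, and 4.91% were as uneven as the 9 members (21.4% of the members).

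**Figure D3:**
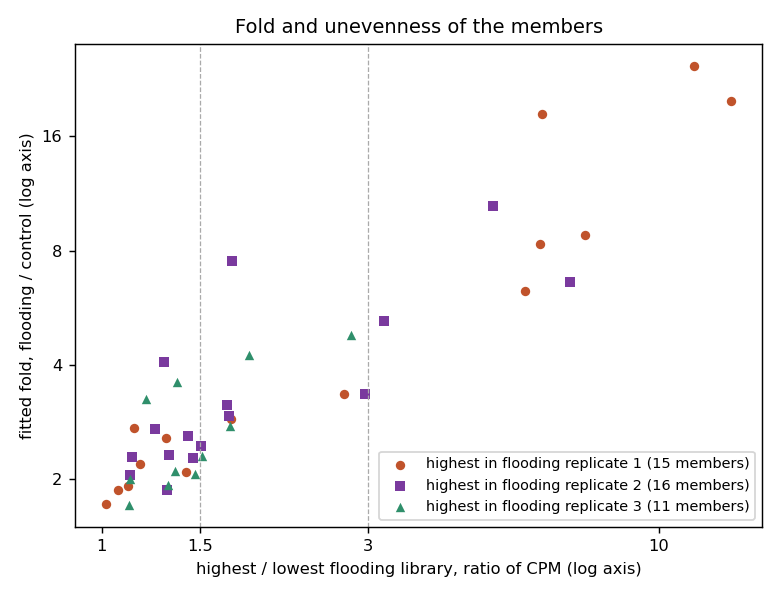
Fitted fold, flooding over control (y axis, log), against the ratio of the highest to the lowest flooded library (x axis, log) for the 42 members, with colour and shape giving the flooded replicate in which the member was highest. Dashed lines mark ratios of 1.5 and 3; all 9 members to the right of 3 are highest in flooding replicate 1 (6 members) or replicate 2 (3 members).

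The 22 even members had modest folds, 1.71 to 4.07 with a median of 2.15, and standard errors of the log2 fold change of 0.12 to 0.62 with a median of 0.20. Over them the median log2 difference from the control mean was 1.11, 1.09 and 1.12 in flooding replicates 1 to 3. The most even of all was rank 32, with 121, 119 and 119 CPM in flooding replicates 1 to 3, against 74.4, 62.9 and 71.3 CPM in control replicates 1 to 3. Flooded libraries there differed by less than 1.02-fold and all lay at least 1.596-fold above the highest control.

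Rank 18 had the smallest standard error of the members (log2 fold change 1.01, SE 0.12). Its values were 105, 95.3 and 107 CPM in flooding replicates 1 to 3, against 53.9, 47.7 and 51.3 CPM in control replicates 1 to 3. Rank 14, among the most abundant, had 365, 311 and 345 CPM in flooding replicates 1 to 3, against 168, 139 and 157 CPM in control replicates 1 to 3. In both, each group kept within 1.21-fold and the groups were well apart. Rank 5 was a weakly expressed member of the same kind, with 12.2, 11.8 and 14.2 CPM in flooding replicates 1 to 3, against 4.48, 4.19 and 3.09 CPM in control replicates 1 to 3.

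In 2 even members the controls spread more than 5-fold. Rank 20 had 72.8, 78.5 and 60.6 CPM in flooding replicates 1 to 3, against 34.4, 12.7 and 4.78 CPM in control replicates 1 to 3, a 7.20-fold range among controls. Rank 8 had 16.4, 14.9 and 20.4 CPM in flooding replicates 1 to 3, against 6.75, 1.24 and 6.33 CPM in control replicates 1 to 3. The low control was replicate 3 in rank 20 and replicate 2 in rank 8, while the highest control was replicate 1 in both.

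The 9 uneven members had larger folds, 5.22 to 24.5 with a median of 8.80, and larger standard errors, 0.46 to 1.14 on the log2 scale. Flooding replicate 3 was the lowest flooded library in all 9. In 6 of them the order was replicate 1, then 2, then 3. The median log2 difference from the control mean over these 9 was 4.24, 3.26 and 1.64 in flooding replicates 1 to 3. Rank 4 had 138, 30.3 and 10.2 CPM in flooding replicates 1 to 3, against 2.33, 3.43 and 3.23 CPM in control replicates 1 to 3. Rank 10 had 607, 134 and 82.2 CPM in flooding replicates 1 to 3, against 23.4, 38.7 and 31.6 CPM in control replicates 1 to 3. Like Prupe.3G310500_v2.0.a1, both were many times higher in flooding replicate 1 than in replicate 3, whose level was nonetheless more than 2 times the highest control.

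Flooding replicate 2 was the highest in the other 3 uneven members. Rank 2 had 8.79, 35.0 and 6.95 CPM in flooding replicates 1 to 3, against 2.21, 1.99 and 0.562 CPM in control replicates 1 to 3. Rank 21 had 2.93, 19.1 and 2.76 CPM in flooding replicates 1 to 3, against 1.35, 1.51 and 0.844 CPM in control replicates 1 to 3. Their mean in flooded leaves thus rested mostly on replicate 2, the library with 5.63% of reads outside gene models. Such reads are counted in no gene, and whether what raised their share also altered the counts within genes was not tested.

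Rank 6 was the member closest to silent in controls. It had 30.5, 5.14 and 4.94 CPM in flooding replicates 1 to 3, against 1.84, 0.137 and 0.141 CPM in control replicates 1 to 3, and the 2 low values are 2 reads each. Pooled over the libraries of each group, 466 flooded against 34 control reads gave a ratio of 18.2 (95% Poisson interval 12.9 to 26.7, for counting error only). The interval does not cover the spread between libraries, which was 6.17-fold among the flooded ones and 13.4-fold among controls. Of the 34 control reads, 30 came from control replicate 1.

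Which flooded library was highest differed from member to member. Flooding replicate 1 was the highest in 15 members (35.7%), replicate 2 in 16 (38.1%) and replicate 3 in 11 (26.2%). Among the 12734 genes of at least 5 CPM these shares were 32.2%, 32.7% and 35.1%. Flooding replicate 3 was the lowest flooded library in 21 of the 42 members (50.0%), against 33.8% of the 12734 genes. On the control side, replicate 2 was the highest in 19 members (45.2%), close to its 45.3% among the 12734 genes. Replicate 1 was the highest in 17 (40.5%, against 33.8% of those genes) and replicate 3 in 6 (14.3%, against 20.9%). On the flooded side the limit of the rule was therefore most often set by replicate 3. On the control side it was set by replicate 2 in 19 members and by replicate 1 in 17. The share of replicate 2 was about that of all genes at this level, so it marks nothing particular to the members.

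Together the members took a small part of the transcripts. Their summed level was 5559, 3819 and 3138 CPM in flooding replicates 1 to 3, against 1263, 1477 and 1264 CPM in control replicates 1 to 3. That is 0.411% ± 0.148 of the reads of tested genes in flooded and 0.137% ± 0.00258 in control libraries (SD, n = 3 each). Prupe.3G310500_v2.0.a1 alone made up 26.3% of the sum in flooding replicate 1, 8.43% in replicate 2 and 4.03% in replicate 3. The 9 uneven members summed to 2578, 648 and 291 CPM in flooding replicates 1 to 3, against 64.3, 113 and 88.2 CPM in control replicates 1 to 3. Without them the sum was 2981, 3171 and 2847 CPM in flooding replicates 1 to 3, against 1199, 1365 and 1176 CPM in control replicates 1 to 3. The differences between flooded libraries in the summed level lay largely in the uneven members. These were set apart by that same spread, so the split is a description only.

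**Figure D4:**
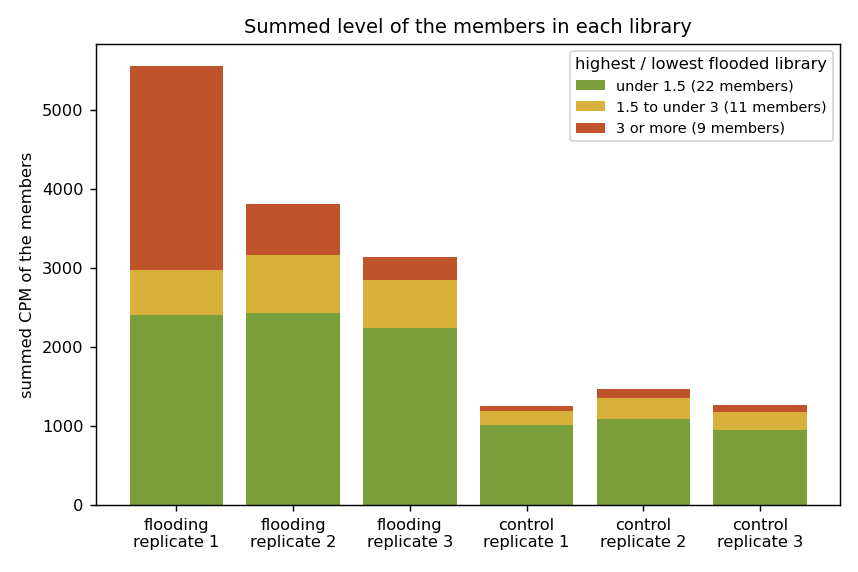
Summed CPM of the members in each library, flooded libraries on the left and controls on the right, with each bar divided by the ratio of the highest to the lowest flooded library of a member (under 1.5, 1.5 to under 3, 3 or more). The green part, 22 even members, is 2247 to 2428 CPM in flooded and 956 to 1099 CPM in control libraries, while the orange part, 9 uneven members, differs widely between flooded libraries.

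Of the 42 members, edgeR's quasi-likelihood test called 0 at an adjusted p under 0.05, where it called 0% of all 16917 tested genes as higher. All 42 had an unadjusted p under 0.05 in that test, where 4.26% of tested genes had one and were higher. Of the 6 higher genes with an adjusted p under 0.1 (0.0355% of tested genes), 5 were members. DESeq2 called 39 members, where it called 0.598% of its 18055 genes as higher. The exact test of edgeR called 32 (0.378% of tested genes) and limma-voom 0 (0%). Since the rule used this contrast, nothing is read from these counts. Without control replicate 2 the quasi-likelihood test called 5 members among 26 higher genes (0.15% of those tested).

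Large mean differences alone did not make a gene a member. Groups did not overlap, with flooding higher, in 6.76% of tested genes, and 893 of these averaged at least 5 CPM in flooded leaves, but the gap was large enough in 42. Of the genes of at least 5 CPM, 89 had a fitted fold of at least 4 and 13 of them were members. In the other 76, flooding replicate 3 fell short of the required gap in 74, replicate 1 in 19 and replicate 2 in 4, and replicate 3 was the only one to fall short in 53. A list of 25 genes of at least 5 CPM was at least 4-fold above every control in both flooding replicates 1 and 2, and 3 of these were members.

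The number of members depended on which library was left out. The rule gave 67 genes without flooding replicate 1, 76 without flooding replicate 2, 250 without flooding replicate 3, 102 when control replicate 1 was left out, 165 for control replicate 2 and 50 for control replicate 3. Of the 42, 39 to 42 were again chosen in each case, which says little, since dropping a library relaxes the gap apart from small shifts in scaling. The minimum mean of 5 CPM can be lost with a high flooded library, and 39 were kept without flooding replicate 2. Rank 13 had 5.51 and 2.51 CPM in flooding replicates 1 and 3, rank 21 had 2.93 and 2.76, and rank 27 had 4.31 and 5.44. In flooding replicate 2 these ranks had 8.05, 19.1 and 12.8 CPM, and they met the minimum mean only with that library. The median log2 fold change of the 42 stayed between 1.33 and 1.54 in these cases, against 1.46 with all libraries.

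Libraries that had no part in choosing genes were looked at by leaving out 1 flooded and 1 control library at a time and applying the rule to the other 4. Each of the 9 such choices gave 77 to 475 genes, a wider set than the 42. With flooding replicate 1 left out, 30.9% to 76.6% of the chosen genes were at least 1.5-fold higher in it than in the left-out control, against 9.03% to 12.3% of all genes at the same minimum level. Flooding replicate 2 gave 36.1% to 56.4%, against 9.41% to 11.7%. Flooding replicate 3 gave 16.6% to 31.6%, against 6.52% to 8.79%. These shares were above the background in all 9 pairs, and the 2 lowest came from pairs with flooding replicate 3 left out. The share at least 1.5-fold lower was not counted. The excess over the background therefore does not separate a rise with flooding from a wider spread of the chosen genes. The share simply higher in the left-out flooded library was 44.8% to 94.8% of chosen genes, against 46.3% to 52.3% of all genes at that level. It was below the background in 2 pairs, flooding replicate 3 with control replicate 1 (45.6% against 51.3%) and with control replicate 2 (44.8% against 46.3%).

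The median log2 difference between the left-out libraries, flooding minus control, over the chosen genes ran from -0.10 to 1.10 in the 9 pairs, against -0.03 to 0.02 over all genes at that level. It was below 0 in the same 2 pairs (-0.10 and -0.08). In these 2 pairs, genes higher in flooding replicates 1 and 2 than in the other controls were more often than not no higher in flooding replicate 3. With flooding replicate 3 and control replicate 3 left out, 57.5% of another set of chosen genes were higher, with a median of 0.17. No test was made of these shares, because the 9 pairs reuse the same libraries.

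**Figure D5:**
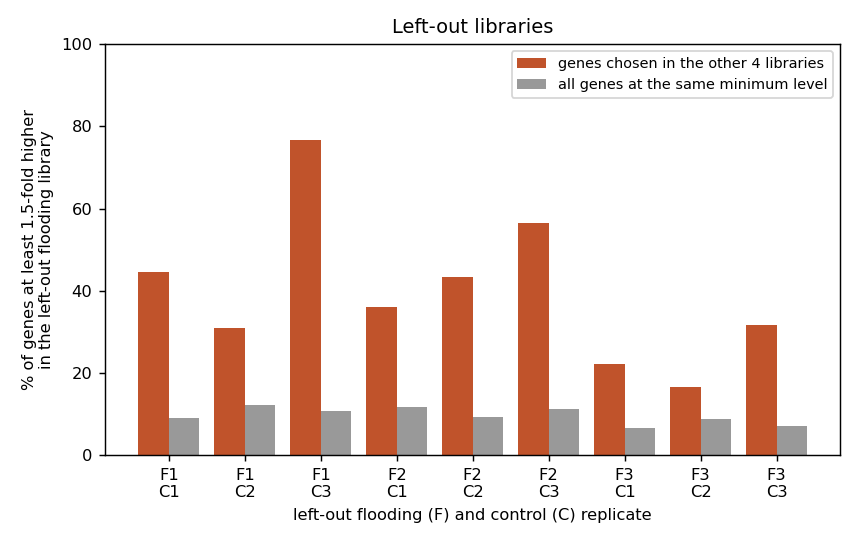
Share of genes at least 1.5-fold higher in a left-out flooded library (F) than in a left-out control library (C), for each of the 9 pairs; orange bars are genes chosen by the rule in the other 4 libraries, grey bars are all genes with the same minimum level. Orange bars run from 16.6% to 76.6% and grey bars from 6.52% to 12.3%; the lowest orange bar leaves out flooding replicate 3 and control replicate 2.

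The members were spread over the gene IDs. IDs with the stem Prupe.1G made up 31.0% of members (13 of 42) against 22.8% of tested genes, and every other stem from Prupe.2G to Prupe.8G held 2 to 6 members. No members stood next to each other in the order of the files, and 2 pairs of members lay within 10 rows, the closest 4 rows apart. Of the 84 rows that adjoin a member, 46 were tested, and 3 of these (6.52%) were higher in every flooded library, beside 6.76% of all tested genes. Their median log2 fold change was 0.11.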

How the data were processed

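The authors deposited raw read counts per gene model, 1 library per file, with no normalization. HTSeq 0.11.1, FastQC 0.11.7, edgeR 3.8 and Trimmomatic are listed, with no role, per the submitters' processing notes. Sources used here do not state the aligner, genome build or strand setting, so near-identical, overlapping or antisense gene models are uncertain. The gene IDs carry the prefix Prupe and a version suffix. Whether these gene models come from either parent species of the hybrid was not checked, nor was how reads of similar gene copies were assigned. The 5 closing rows that name no gene (14.1% to 19.0% of listed reads) were left out. With R 4.3.3 and edgeR 4.0.16, genes were kept by filterByExpr (minimum count 10, minimum total 15), library sizes recomputed and scaled by TMM, and log2 CPM taken with a prior count of 2. All 6 libraries entered edgeR's quasi-likelihood F test of flooding against control, adjusted by Benjamini-Hochberg over all tested genes. Standard errors were derived from that test, as the absolute log2 fold change divided by the square root of F. DESeq2 1.42.0, limma-voom 3.58.1, edgeR's exact test, other scalings and filters, a replicate block and leaving out each library were alternatives. Members and lists were chosen with earlier results of these data known; product lists and promoter motifs were not used, for want of annotation. By rule, without annotation only the members with the largest gap and the highest flooded mean were named. The limit that 0 reads allow (3 counts) was 0.184 to 0.291 CPM, for counting error only.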

Additional observations from a re-analysis of the deposited data

Results flagged for a closer look

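Reads outside gene models, which no comparison of genes uses, made up 5.63% of the listed reads in flooding replicate 2, above the 1.19% ± 0.164 of the controls (SD, n = 3). Reads with several alignments were 12.8% of those listed in flooding replicate 1, above the 10.9% ± 0.520 of the controls (SD, n = 3). They were 11.8% in flooding replicate 3, also above the highest control (11.5%), and 10.8% in flooding replicate 2. Flooding replicate 1 was the highest library in 6 of the 9 uneven members and flooding replicate 2 in the other 3, while flooding replicate 3 was the lowest flooded library in all 9. Neither kind of read is counted in a gene. Whether what raised these shares also altered the counts within genes was not tested.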

How the results depend on the processing

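The 42 members numbered 31 to 45 under other scalings, filters and prior counts, and 50 to 250 with 1 library left out, where the rule asks for fewer libraries. With no minimum gap there were 893, and 13 with a gap of 2-fold. All 42 were kept under the scalings by DESeq2 or upper quartile, both filters and both prior counts, and 28 with library totals, under which all genes had a median log2 change of -0.08. Their median log2 fold change of 1.46 ran from 1.33 to 1.54 over 13 alternatives. Called genes numbered 5, all lower; they were 8 with upper quartile factors, 10 with library totals, 10 without a filter, 233 with DESeq2, 153 with the exact test, 23 at an adjusted p under 0.1, and 0 to 122 with 1 library left out, the highest without control replicate 2. Members called as higher numbered 0, but 1 of 1 higher gene with upper quartile factors and with library totals, 39 of 108 with DESeq2, 32 of 64 with the exact test, and 0 to 5 with 1 library left out (5 of 26 without control replicate 2). With the replicate number as a block, 0 genes and 0 members were called. Same-numbered samples deviated together with r of 0.06, 0.16 and 0.12. The labels do not say that the numbers pair samples, so the numbers were treated as names only in the main fit. The log2 fold change of Prupe.3G310500_v2.0.a1 was 3.86 with the block, and 3.10 to 5.10 with 1 library left out. Unevenness limits chosen after the data were seen gave 9 or 30 even and 8 or 12 uneven members in place of 22 and 9. The cause of these shifts was not tested. Depth limits 2 members most, those with under 10 reads in some control library.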
